A study of Mus musculus with 2 samples.

Results

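Matrix metalloproteinases (*Mmp*), their secreted relatives with thrombospondin repeats (*Adamts*), the protease-free ADAMTS-like glycoproteins (*Adamtsl*) and the tissue inhibitors of metalloproteinases (*Timp*) were examined in fibro/adipogenic progenitors (FAPs), the interstitial mesenchymal cells of skeletal muscle. All genes whose symbol starts with Mmp, Adamts, Adamtsl or Timp and a digit were taken, which gave 50 of the 31053 genes counted. Of these, 22 were *Mmp*, 19 *Adamts*, 5 *Adamtsl* and 4 *Timp* genes. The 40 members with 20 or more unique molecular identifiers (UMIs, each marking 1 captured transcript) over both libraries were described, namely 13 *Mmp*, 18 *Adamts*, 5 *Adamtsl* and 4 *Timp* genes. Of the other 10 members, 5 had no UMI (*Adamts13*, *Mmp1b*, *Mmp7*, *Mmp12* and *Mmp20*) and 5 had 1 to 19 (*Mmp8*, *Mmp10*, *Mmp13*, *Mmp21* and *Mmp24*). *Mmp24* with 14 UMIs lay just outside the limit, while *Mmp25* with 22, *Adamts18* with 24 and *Timp4* with 26 lay just inside.

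These enzymes hold a zinc ion in their active site, are made as inactive precursors and cut collagens, proteoglycans and other proteins of the extracellular matrix. TIMP proteins bind the active site and block it, and several ADAMTS-like proteins bind fibrillin microfibrils without cutting anything. In muscle, fibroblast-like interstitial cells are a main source of matrix and of the enzymes that remodel it.

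FAPs were sorted from limb muscle of 3-week-old C57BL/6 mice as cells negative for 7AAD, CD45, CD31 and Vcam1 and positive for Sca1, and 1 droplet library was made for each of 2 genotypes. Both genotypes carried floxed alleles of *Bap1*, which encodes a deubiquitinase that acts on histone H2A. Mice with these alleles alone (Bap1f/f) gave the Bap1WT library, and mice that also carried Prx1-Cre (Prx1-Cre;Bap1f/f) gave the Bap1ΔMPC library. The Prx1 promoter drives Cre in limb bud mesenchyme and the cells derived from it, so across the limb recombination is not limited to FAPs. Within muscle, the paper reports loss of *Bap1* in FAPs and none in Schwann cells or muscle stem cells. The number of mice per library is not given in the sources used here. With 1 library per genotype there was no replicate and no test between genotypes was possible. All intervals below are 95% intervals that cover counting error only, and members that differ over 3-fold were named by size.

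The Bap1WT library held 4103 cells and 51015705 UMIs, and the Bap1ΔMPC library 4378 cells and 49540066 UMIs. Median UMIs per cell were 12232 and 11018. *Bap1* had 897 UMIs in the Bap1WT library, or 17.6 CPM (UMIs of a gene per 1000000 UMIs of the library; interval 16.5 to 18.8), and 1072 UMIs in the Bap1ΔMPC library, or 21.6 CPM (20.4 to 23.0). Its count was thus not lower in the library labelled as the deletion, and counts of transcript ends do not show which exons were present, so the genotype of each library rests on its label throughout. The libraries shared 5 cell barcodes. The FAP markers *Pdgfra* (347 and 298 CPM) and *Ly6a*, which encodes Sca1 (1640 and 2002 CPM), were high in both libraries, *Ptprc*, which encodes CD45, and *Pax7*, *Myf5* and *Myod1* of muscle stem cells had no UMI. Over whole lists, 6 immune markers summed to 7.92 and 14.0 CPM, mostly *Cd68* and *Lyz2*, with *Ptprc* and *Cd3e* at 0, and 5 muscle stem cell markers to 41.8 and 24.7 CPM, mostly *Vcam1*. Summed CPM of 5 tendon markers was 30.8 in the Bap1WT and 103 in the Bap1ΔMPC library, and of 5 Schwann markers 21.2 and 67.3, of which *S100b* held most. No cell type that should lack these genes was present to measure free RNA against.

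Cells with 25 or more UMIs of *Pi16*, *Sema3c*, *Anxa3* and *Efemp1* per 10000 were called Dpp4-type, and all others other cells. Dpp4-type cells numbered 1050 of 4103 (25.6%, exact binomial interval 24.3 to 27.0) in the Bap1WT and 1251 of 4378 (28.6%, 27.2 to 29.9) in the Bap1ΔMPC library. *Dpp4* itself, which the cut did not use, was at 298 CPM in Dpp4-type and 56.5 CPM in other cells of the Bap1WT library, and at 268 and 39.5 CPM in the Bap1ΔMPC library. The cut divides a continuous range: 5.12% of Bap1WT and 7.70% of Bap1ΔMPC cells lay between 20 and 30 marker UMIs per 10000. The cut rests on genes whose own levels differed between the libraries, since *Pi16* was at 1243 and 863 CPM and *Efemp1* at 209 and 306 CPM.

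The 250 bases before the annotated start of 4 members are shown first, because 3 of them (*Adamtsl3*, *Mmp15* and *Mmp11*) differed over 3-fold between the libraries and *Mmp3* had the largest fall among members over 100 CPM in the Bap1WT library. Sequences are from RefSeq on GRCm38.p6, 5′ to 3′ along each gene. In GENCODE vM21 a transcript of *Adamtsl3*, *Mmp3* and *Mmp11* starts at the same base and one of *Mmp15* 28 bases away, but another *Mmp11* transcript begins further upstream, so the *Mmp11* start lies 3994 bases inside the gene as GENCODE bounds it. Capitals mark the AP-1 motif TGANTCA, the TATA motif TATAAA, the CCAAT motif and the GC box GGGCGG, each searched on both strands.
Adamtsl3, chr7:82335444-82335693 (plus strand): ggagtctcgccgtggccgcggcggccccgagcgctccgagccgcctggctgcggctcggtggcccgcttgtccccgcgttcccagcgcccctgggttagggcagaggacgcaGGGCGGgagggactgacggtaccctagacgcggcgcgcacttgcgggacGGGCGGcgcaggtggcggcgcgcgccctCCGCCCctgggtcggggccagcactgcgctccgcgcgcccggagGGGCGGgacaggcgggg
Mmp15, chr8:95352046-95352295 (plus strand): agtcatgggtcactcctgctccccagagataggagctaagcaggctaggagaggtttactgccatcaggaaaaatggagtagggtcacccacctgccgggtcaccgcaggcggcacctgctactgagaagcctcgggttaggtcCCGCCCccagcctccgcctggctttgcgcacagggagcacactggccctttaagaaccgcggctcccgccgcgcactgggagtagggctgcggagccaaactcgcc
Mmp11, chr10:75932503-75932752 (minus strand): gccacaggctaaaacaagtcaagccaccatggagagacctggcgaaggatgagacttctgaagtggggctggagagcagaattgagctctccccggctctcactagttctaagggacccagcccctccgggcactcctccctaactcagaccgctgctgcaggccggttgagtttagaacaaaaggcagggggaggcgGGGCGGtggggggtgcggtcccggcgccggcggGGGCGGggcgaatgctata
Mmp3, chr9:7445572-7445821 (plus strand): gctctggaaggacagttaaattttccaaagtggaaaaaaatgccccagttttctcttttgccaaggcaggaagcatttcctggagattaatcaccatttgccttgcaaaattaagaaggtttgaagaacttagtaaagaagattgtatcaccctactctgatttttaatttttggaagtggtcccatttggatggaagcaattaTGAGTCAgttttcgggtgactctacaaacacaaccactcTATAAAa

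The *Adamtsl3* window held 39 CpG dinucleotides, more than 98.4% of the 32851 promoter windows in the table, and 4 GC boxes. *Mmp15* and *Mmp11* held 14 CpG each, above the median of 6 over all windows. The *Mmp3* window held 1 CpG, an AP-1 motif beginning 46 bases and a TATA motif beginning 7 bases before the start. An AP-1 motif stood in 6.75% of all windows, TATAAA in 12.4%, CCAAT in 33.9% and the GC box in 32.7%. Of the 25 described members with a window in the table, 1 had an AP-1 motif (*Mmp3*), 3 had TATAAA (*Mmp3*, *Adamts1* and *Adamtsl2*) and 19 had a GC box. A match is a description of letters and not evidence of a bound site.

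All members together made up 0.555% of UMIs in the Bap1WT and 0.603% in the Bap1ΔMPC library. The inhibitors and a few proteases carried most of this. *Timp2*, whose product blocks MMPs and also helps activate pro-MMP2, led in both libraries with 25.1% and 21.7% of member UMIs. *Mmp2*, the gelatinase that cuts denatured collagen and basement membrane, was next with 18.1% and 17.0%. *Timp3*, the inhibitor that stays bound to matrix, *Adamts2*, which removes the N-propeptide of fibrillar procollagens, and *Adamts5*, an aggrecan- and versican-cutting enzyme, completed the 5 members with the most UMIs in both libraries. UMIs count transcript ends, so these levels were not divided by transcript length.

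**Figure D1:**
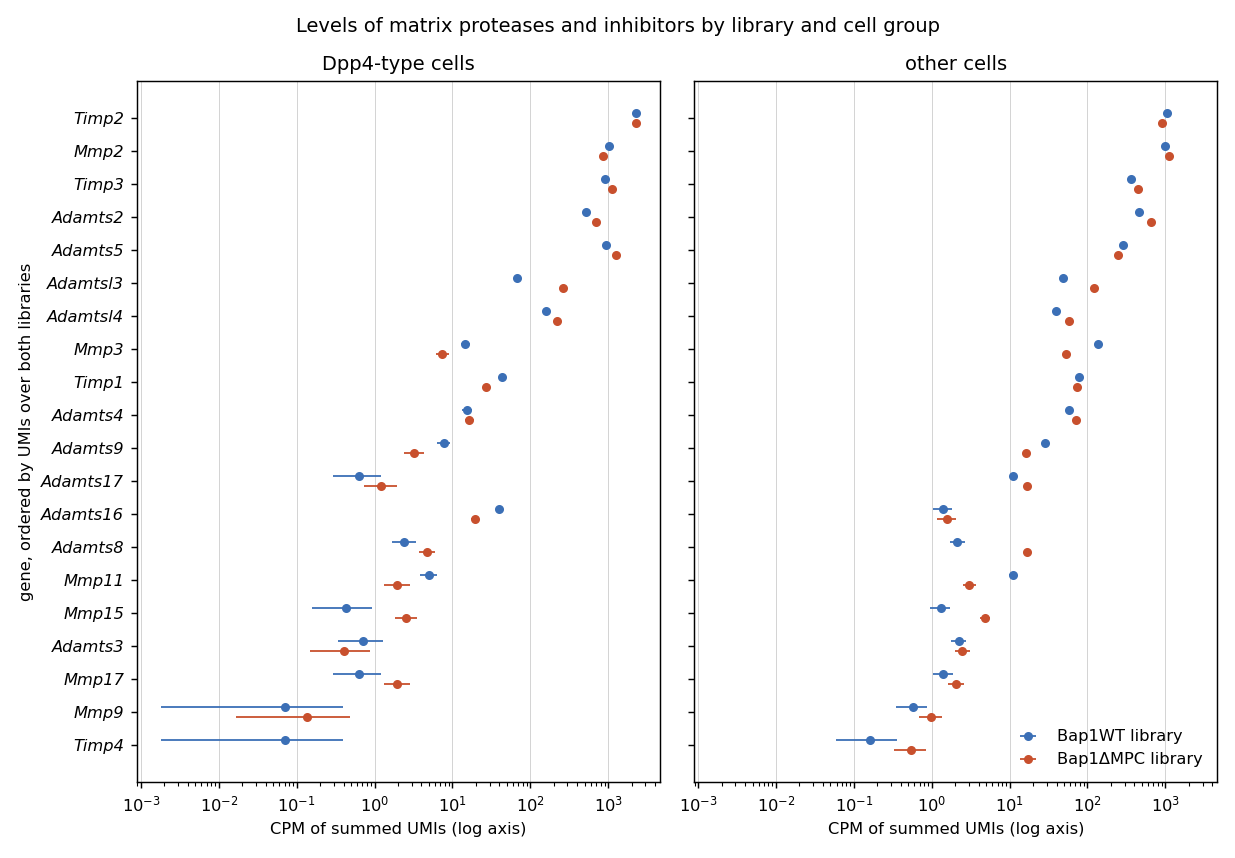
CPM of summed UMIs (log axis) of the 20 members given in full, in Dpp4-type cells (left) and other cells (right), with points for the Bap1WT library in blue and the Bap1ΔMPC library in orange and bars for exact Poisson 95% intervals. *Timp2* and *Mmp2* head the list, and *Timp4*, which had no UMI in Bap1ΔMPC Dpp4-type cells and so no point there, ends it.

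The *Timp* genes differed from one another in which cells held them. *Timp2* was at 2283 CPM in Dpp4-type and 1051 CPM in other cells of the Bap1WT library, and at 2255 and 908 CPM in the Bap1ΔMPC library. Dpp4-type cells thus had 2.17-fold and 2.48-fold the level of other cells, while the libraries differed little within Dpp4-type cells (log2 ratio, Bap1ΔMPC over Bap1WT, -0.02, interval -0.04 to 0.00). *Timp3* followed the same order, with 917 and 362 CPM in the Bap1WT and 1105 and 444 CPM in the Bap1ΔMPC library. Its log2 ratio between libraries was 0.27 (0.24 to 0.30) in Dpp4-type and 0.30 (0.26 to 0.33) in other cells. *Timp1*, a secreted inhibitor induced by growth factors and injury, had the opposite order, with 43.4 CPM in Dpp4-type and 77.1 CPM in other cells of the Bap1WT library, and 27.4 and 72.2 CPM in the Bap1ΔMPC library, where 1 of the other cells held 275 of 2512 UMIs. *Timp4* was near the limit of detection, with 7 UMIs in the Bap1WT and 19 in the Bap1ΔMPC library. In other cells its counts of 6 and 19 gave a 3.36-fold ratio with an interval of 0.37 to 3.36 on the log2 scale, so its size is barely set by these counts, and without tendon-marker cells (*Chad*, *Tnmd* and *Cilp2*) the counts were 6 and 14, a 2.61-fold ratio.

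Between Dpp4-type and other cells, 9 of the 35 members with 20 or more UMIs in each library were more than 3-fold apart, to the same side in each library. Higher in Dpp4-type cells were 3 (8.57%), against 1.57% of all genes tested, and lower were 6 (17.1%), against 4.47% of all genes tested. The median absolute log2 ratio was 1.12 over members and 0.249 over all genes in the Bap1WT library, and 1.13 and 0.256 in the Bap1ΔMPC library. The direction was the same in both libraries for 32 of 35 members, 15 higher and 17 lower in Dpp4-type cells, and the exceptions were *Mmp2*, *Adamts1* and *Adamts8*. The libraries were read side by side, and each ratio compares cells within 1 library.

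**Figure D2:**
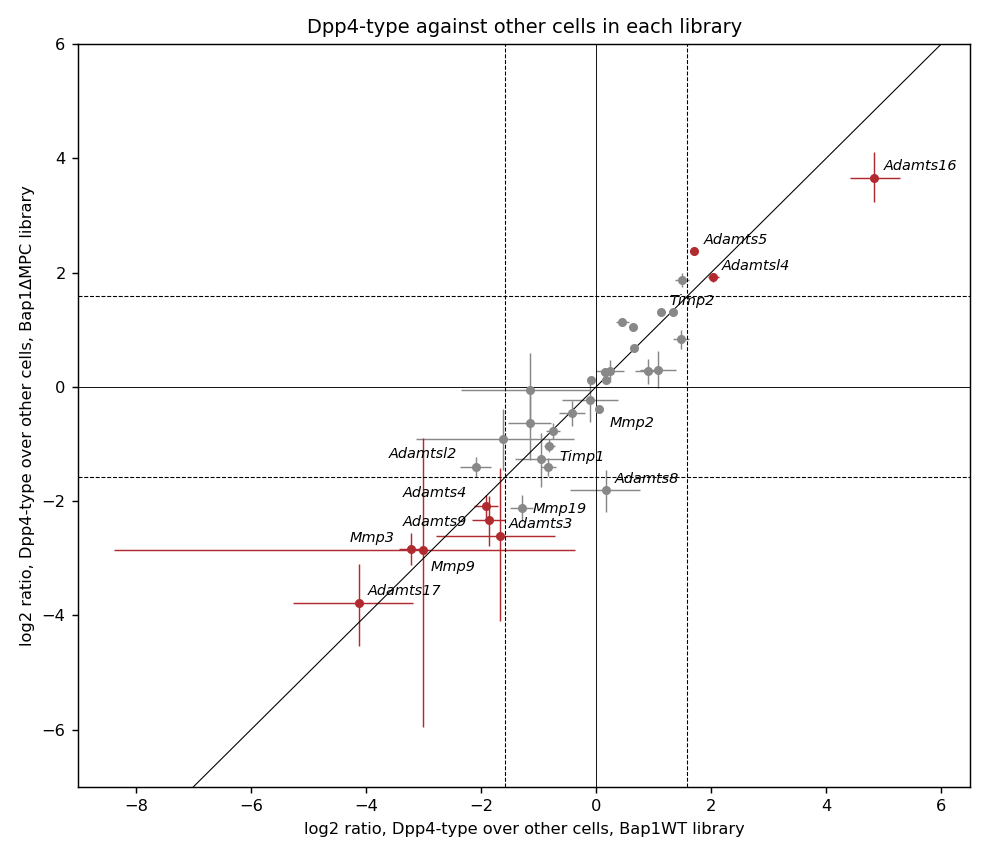
Log2 ratio of CPM in Dpp4-type over other cells for 35 members, in the Bap1WT library (x axis) and the Bap1ΔMPC library (y axis), with bars for 95% counting intervals, dashed lines at 3-fold and the line of equal ratios. The 9 red points are past 3-fold in both libraries, *Adamts16* at the top right and *Adamts17* at the bottom left, while *Adamts8* lies off the line with ratios of 0.17 and -1.81.

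*Adamts16*, a secreted protease linked to fibronectin cleavage and blood pressure, was the member most restricted to Dpp4-type cells. It had 557 UMIs in Dpp4-type and 51 in other cells of the Bap1WT library (39.5 and 1.38 CPM), a 28.6-fold difference. In the Bap1ΔMPC library it had 290 and 54 UMIs (19.6 and 1.55 CPM), a 12.6-fold difference. The level in Dpp4-type cells was therefore 2.01-fold lower in the Bap1ΔMPC library (log2 ratio -1.01, -1.22 to -0.80), with no difference beyond counting error in other cells (0.17, -0.41 to 0.75). At 25 to 50 marker UMIs per 10000 it was at 14.9 CPM in the Bap1WT and 14.3 CPM in the Bap1ΔMPC library (398 and 646 cells). At 50 to 100 it was at 49.4 and 25.4 CPM, and at 100 or more at 70.9 and 26.3 CPM (144 and 82 cells). What part the marker levels have in the 2.01-fold difference was not tested. A UMI of *Adamts16* was found in 33.5% of Dpp4-type and 1.41% of other cells of the Bap1WT library and in 14.5% and 1.34% in the Bap1ΔMPC library. After thinning to 5000 UMIs per cell these shares were 16.7% and 0.640%, and 7.49% and 0.472%, in the same order.

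*Adamts5* was at 928 CPM in Dpp4-type and 284 CPM in other cells of the Bap1WT library and at 1279.5 and 246 CPM in the Bap1ΔMPC library. The difference between cell groups was 3.27-fold in the former and 5.20-fold in the latter. *Adamtsl4*, whose product binds fibrillin-1 and anchors the lens, was at 159 and 38.9 CPM in the Bap1WT and at 221 and 58.5 CPM in the Bap1ΔMPC library, 4.10-fold and 3.78-fold higher in Dpp4-type cells. *Adamtsl5*, another fibrillin-binding member, was next at 2.80-fold and 3.65-fold, short of the limit in 1 library.

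On the other side stood proteases of cells with few *Pi16*, *Sema3c*, *Anxa3* and *Efemp1* transcripts. *Adamts17*, a secreted protease whose loss in people causes short stature with lens defects, had 9 UMIs in Dpp4-type and 412 in other cells of the Bap1WT library and 18 and 581 in the Bap1ΔMPC library, 17.5-fold and 13.7-fold lower in Dpp4-type cells. *Mmp3*, stromelysin-1, which cuts proteoglycans, fibronectin and other pro-MMPs, was at 14.7 and 136 CPM in the Bap1WT and 7.45 and 53.2 CPM in the Bap1ΔMPC library, 9.30-fold and 7.14-fold lower. In Dpp4-type cells of the Bap1ΔMPC library 1 cell held 38 of the 110 *Mmp3* UMIs, so the latter ratio leans on that cell. *Adamts4*, an aggrecanase, was 3.76-fold and 4.25-fold lower, at 15.4 and 58.0 CPM and at 16.5 and 70.2 CPM. *Adamts9*, a versican-cutting enzyme, was 3.63-fold and 5.05-fold lower, at 7.79 and 28.3 CPM and at 3.25 and 16.4 CPM. *Adamts3*, a procollagen N-proteinase that also acts on pro-VEGFC, was 3.17-fold and 6.09-fold lower but rested on 10 and 6 UMIs in Dpp4-type cells. *Mmp9*, the other gelatinase, had 1 and 2 UMIs in Dpp4-type cells against 21 and 34 in other cells, ratios of -3.01 (-8.38 to -0.37) and -2.85 (-5.95 to -0.89) on the log2 scale.

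Members of 1 family did not move as a block. Among the aggrecan- and versican-cutting enzymes, *Adamts5* and *Adamts15* were higher and *Adamts4* and *Adamts9* lower in Dpp4-type cells of both libraries. *Adamts1*, the most abundant after *Adamts5*, was nearly level, at 315 and 335 CPM in the Bap1WT and 331 and 306 CPM in the Bap1ΔMPC library. *Adamts1* and *Adamts5* are neighbours on chromosome 16 (GRCm38, GENCODE vM21, 85793827 to 85901828, both on the minus strand). Of the 9 members in a cluster on chromosome 9 (7272514 to 7699585), only *Mmp3* and *Mmp27* reached 20 UMIs, and *Mmp27* was 2.10-fold higher in Dpp4-type cells of the Bap1WT library, with a log2 ratio of 0.30 (-0.02 to 0.62) in the Bap1ΔMPC library, while *Mmp3* was lower in both. No member shared an exon with another gene on its own strand.

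Levels were graded along the marker UMIs rather than set by the cut alone. *Timp2* ran from 1026 CPM in Bap1WT cells with under 5 marker UMIs per 10000 through 1677 CPM at 25 to 50 to 3318 CPM at 100 or more. In the Bap1ΔMPC library it ran from 781 through 1875 to 3329 CPM. *Adamts5* ran from 219 to 1144 CPM in the Bap1WT and from 142 to 1810.5 CPM in the Bap1ΔMPC library, crossing over between the lowest bins. *Mmp3* fell from 186 to 2.63 CPM in the Bap1WT library, while in the Bap1ΔMPC library it fell from 67.9 CPM to 0 UMIs in 82 cells, which allows up to 4.05 CPM (upper exact Poisson bound). *Adamtsl3* rose in both libraries, less in the Bap1WT library, from 46.4 to 73.0 CPM, than in the Bap1ΔMPC library, from 120 to 360 CPM. *Adamtsl2*, whose product binds LTBP-1 and fibrillin, peaked at 5 to 25 marker UMIs in both libraries, at 51.2 and 73.2 CPM.

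**Figure D3:**
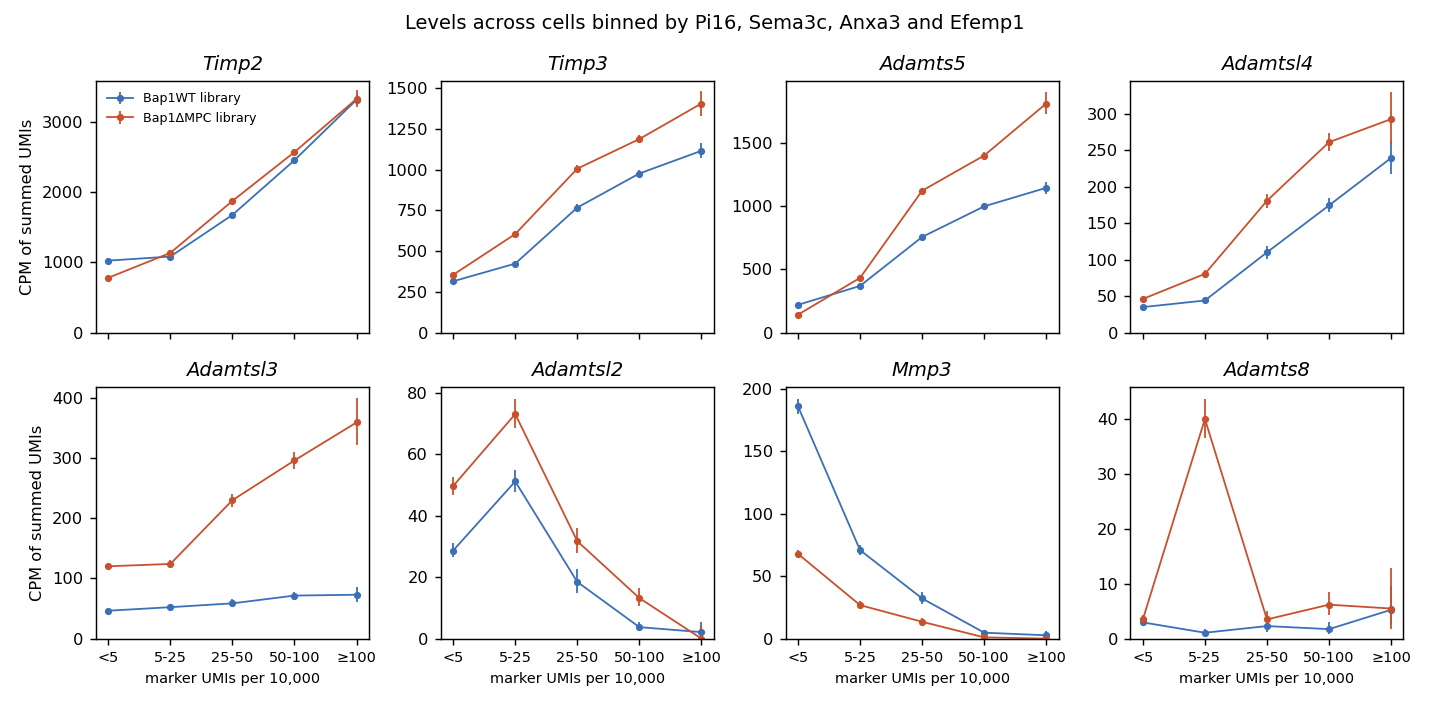
CPM of summed UMIs of 8 members in cells binned by UMIs of *Pi16*, *Sema3c*, *Anxa3* and *Efemp1* per 10000, with 1 line per library and bars for exact Poisson 95% intervals. *Timp2*, *Timp3*, *Adamts5* and *Adamtsl4* climb across the bins in both libraries, *Mmp3* falls, and *Adamts8* has a single peak of 40.1 CPM in the second bin of the Bap1ΔMPC library.

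Over all cells, 4 of 40 members differed over 3-fold between the libraries. *Adamts8*, *Mmp15* and *Adamtsl3* were higher in the Bap1ΔMPC library (7.50%, against 3.15% of all genes tested) and *Mmp11* was lower (2.50%, against 2.12%). In Dpp4-type cells 3 of 33 were higher, namely *Mmp15*, *Adamtsl3* and *Mmp17* (9.09%, against 1.89%), and 0 were lower (against 1.63%). In other cells 3 of 38 were higher, namely *Adamts8*, *Mmp15* and *Timp4* (7.89%, against 3.68%), and *Mmp11* was lower (2.63%, against 2.18%). The median log2 ratio over members was 0.17 in all cells and 0.10 over all genes. With trimmed-mean (TMM) scaling all log2 ratios were lower by 0.10 in all cells, 0.07 in Dpp4-type and 0.11 in other cells.

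**Figure D4:**
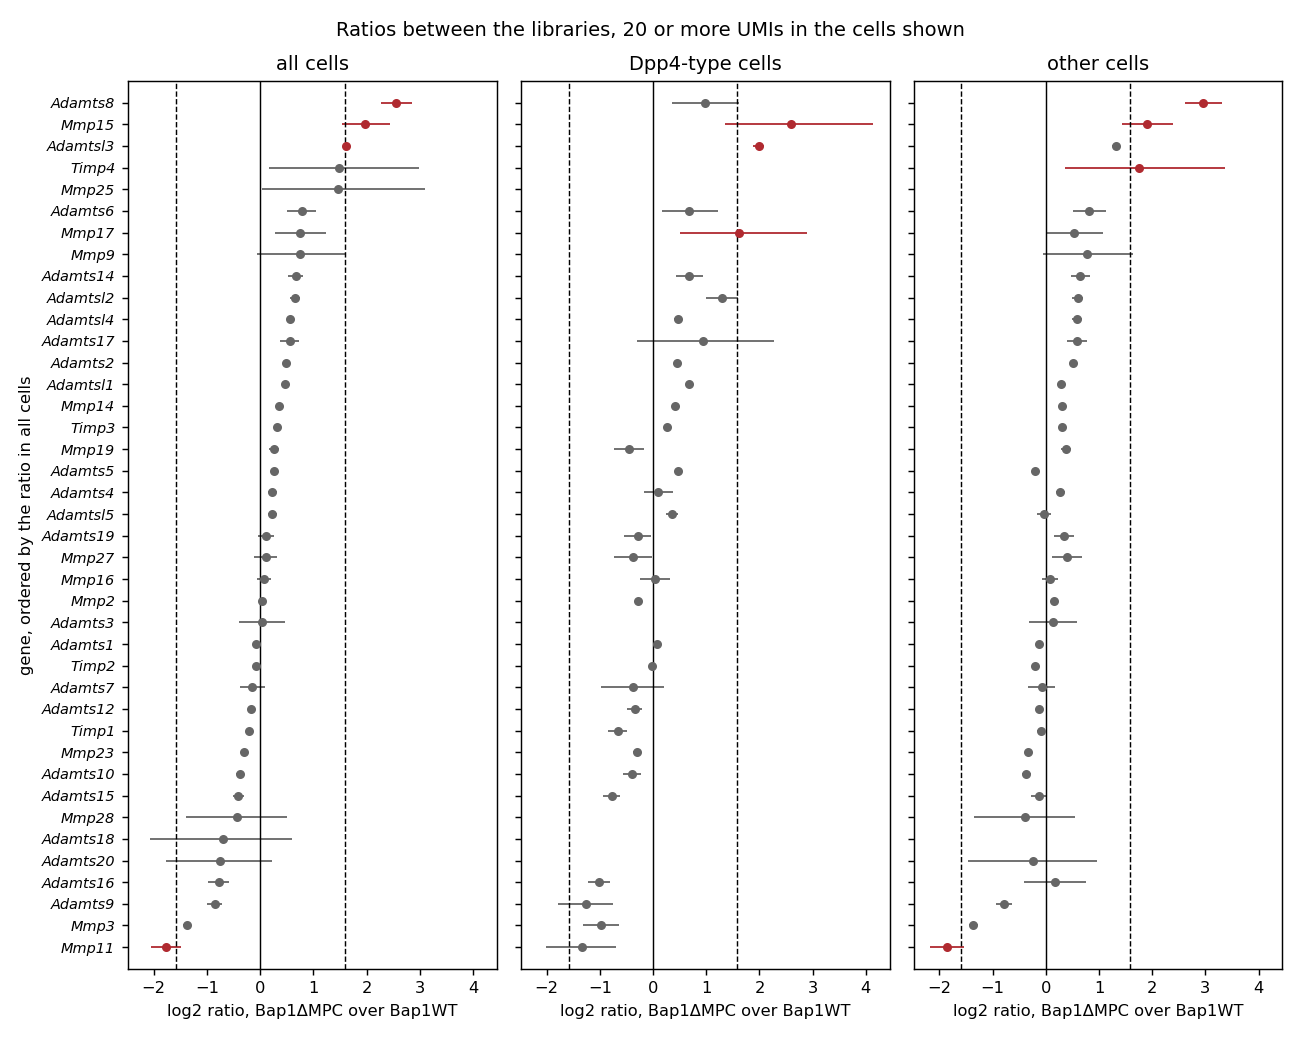
Log2 ratio of CPM, Bap1ΔMPC over Bap1WT library, in all, Dpp4-type and other cells, for members with 20 or more UMIs in the cells shown, with bars for 95% counting intervals and dashed lines at 3-fold. Red points are past 3-fold, and most members lie between -1 and 1.

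*Adamtsl3*, a secreted protein associated with height in human genetic studies, had the most UMIs of the members over 3-fold apart between the libraries. It had 2750 UMIs in the Bap1WT and 8157 in the Bap1ΔMPC library, or 53.9 and 165 CPM, a 3.05-fold difference (log2 ratio 1.61, 1.55 to 1.67). Dpp4-type cells held 66.9 and 266 CPM, a 3.97-fold difference, and other cells 48.9 and 122 CPM, a 2.49-fold difference. The share of cells with a UMI was 37.6% in the Bap1WT and 54.4% in the Bap1ΔMPC library, and 22.1% and 42.1% after thinning. The ratio was larger in Dpp4-type cells by 0.67 on the log2 scale (0.54 to 0.80). In all cells the ratio fell short of 3-fold with TMM scaling, at 1.51, and without the *Fmo2* cells described further on, at 1.54.

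*Mmp15*, a membrane-type protease that can activate pro-MMP2, was low in both libraries, with 54 and 206 UMIs (1.06 and 4.16 CPM), a 3.93-fold difference (log2 ratio 1.97, 1.54 to 2.43). Its counts were 6 and 38 in Dpp4-type and 48 and 168 in other cells. Nearly all cells with it had 1 UMI, and their number was 52 in the Bap1WT and 193 in the Bap1ΔMPC library. *Mmp17*, a GPI-anchored membrane-type enzyme, had 9 and 29 UMIs in Dpp4-type cells, a 3.08-fold difference whose log2 interval ran from 0.51 to 2.89 and which fell short of 3-fold with TMM scaling, and 52 and 71 UMIs in other cells. The abundant member of this group, *Mmp14*, the main cell-surface activator of pro-MMP2, was at 210 and 267 CPM (log2 ratio 0.35, 0.31 to 0.39).

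*Adamts8*, an ADAMTS protease with weak aggrecanase activity, had 113 UMIs in the Bap1WT and 647 in the Bap1ΔMPC library, or 2.21 and 13.1 CPM, a 5.90-fold difference (log2 ratio 2.56, 2.27 to 2.86). In other cells the counts were 79 and 577, a 7.75-fold difference, and in Dpp4-type cells 34 and 70, a 1.97-fold difference. These UMIs sat in few cells. Cells with a UMI numbered 55 in the Bap1WT and 145 in the Bap1ΔMPC library (1.34% and 3.31%, and 0.653% and 1.99% after thinning). In the Bap1WT library 1 cell held 43 of the 113 UMIs, and in the Bap1ΔMPC library 17 cells with 10 or more held 400 of the 647, 1 of them 82. Counting intervals treat UMIs as independent and so are too narrow where few cells hold many UMIs of a gene, as here. This also holds for *Mmp3*, with 50% of its 1959 Bap1ΔMPC UMIs in 34 cells, and *Timp1*, with 275 of 2916 in 1 cell. Outside the cells with 10 or more *Adamts8* UMIs the counts were 70 and 247, a 3.65-fold difference. Of the 17 cells, 8 also had 3 or more UMIs of the tendon markers *Chad*, *Tnmd* and *Cilp2*, and 1 was Dpp4-type. Its neighbour *Adamts15*, on the other strand of chromosome 9 (GRCm38, 30899155 to 30922452, against 30942562 to 30963838 for *Adamts8*), had 1782 and 1302 UMIs (log2 ratio -0.41, -0.51 to -0.31).

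*Mmp11*, stromelysin-3, an enzyme of tissue remodelling with little activity on matrix proteins, was 3.42-fold lower in the Bap1ΔMPC library, with 475 and 135 UMIs or 9.31 and 2.73 CPM (log2 ratio -1.77, -2.06 to -1.49). Its fall was 2.53-fold in Dpp4-type cells (70 and 29 UMIs), and in other cells the counts were 405 and 106 UMIs (log2 ratio -1.85, -2.17 to -1.54). A UMI was found in 405 Bap1WT and 103 Bap1ΔMPC cells, 9.87% and 2.35%. *Mmp3* fell by less, 2.60-fold, from 5240 to 1959 UMIs or from 103 to 39.5 CPM (log2 ratio -1.38, -1.45 to -1.30). Cells with a UMI of *Mmp3* were 23.6% and 8.86%, while those cells held a mean of 5.41 and 5.05 UMIs each. The difference between the libraries was thus in the number of cells with *Mmp3* more than in the count per such cell.

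Several members differed less but beyond counting error. Of the 40 members in all cells, 20 had an interval above equal levels (against 40.9% of all genes tested), 11 below (against 22.1%) and 9 across it. Members had a median of 2497 UMIs over both libraries and all genes tested 1299, so that members' intervals were narrower, and these counts show nothing particular to them. In 6 of 33 members the interval lay on opposite sides of equal levels in Dpp4-type and other cells (18.2%, against 2.83% of all genes tested), with the same limit of depth. Of the 3 procollagen N-proteinases, *Adamts2* (474 and 666 CPM, log2 ratio 0.49, 0.47 to 0.52) and *Adamts14* (12.4 and 19.6 CPM, 0.66, 0.52 to 0.81) were higher in the Bap1ΔMPC library, and *Adamts3* had 93 and 92 UMIs (0.03, -0.40 to 0.46). All of *Adamtsl1* to *Adamtsl5* were above equal levels in all cells, with log2 ratios between 0.23 and 1.61. *Adamtsl5*, however, was at 0.35 in Dpp4-type and -0.03 in other cells. *Adamts9* (22.6 and 12.5 CPM), *Adamts10*, a fibrillin-binding protease (67.8 and 51.8 CPM), and *Mmp23*, a membrane-linked protease (234 and 189 CPM), were lower, with log2 ratios of -0.86, -0.39 and -0.31. Since each genotype is 1 library, how such differences compare with the spread between mice cannot be told.

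Some of the UMIs behind these differences lay in cells marked by sets of other genes, chosen after the values were seen. A cell was placed in a set with 3 or more UMIs of its genes, and did not need to hold each of them. Tendon-marker cells (*Chad*, *Tnmd* and *Cilp2*) numbered 131 in the Bap1WT and 285 in the Bap1ΔMPC library. In the latter they held 258 of 647 *Adamts8* UMIs, at 72.3 CPM against 8.46 CPM in the remaining cells, an 8.54-fold difference. Of these 258 UMIs, 59 came from 1 cell, and without it the difference was 6.63-fold. The set also had 5.07-fold more *Adamts3* (26 UMIs) and 4.30-fold less *Adamts5*. Of its 285 cells 14 were Dpp4-type, and *Adamts5* was higher and *Adamts3* lower in Dpp4-type cells. Neither ratio thus compares the set with other cells alone. The 2.81-fold higher *Timp1* of the set rested on 1 cell with 275 of 522 UMIs, and without that cell the difference was 1.34-fold. In the Bap1WT library they held 0 of 113 *Adamts8* UMIs, which allows up to 2.05 CPM (upper exact Poisson bound). Without tendon-marker cells *Adamts8* was 3.69-fold higher in the Bap1ΔMPC library, and 4.58-fold in other cells.

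Cells with *Fmo2*, *Angpt2* and *Stc1* numbered 575 in the Bap1WT and 73 in the Bap1ΔMPC library, 14.0% and 1.67% of cells. They held 2704 of 5240 *Mmp3* UMIs in the former and 270 of 1959 in the latter. Their *Mmp3* level was 378 CPM in the Bap1WT and 308 CPM in the Bap1ΔMPC library, 6.54-fold and 8.86-fold that of the remaining cells. Of the 575 and 73 cells, 12 and 1 were Dpp4-type, and *Mmp3* was lower in Dpp4-type cells. These ratios thus do not compare the set with other cells alone. In the Bap1ΔMPC library 57 of the 270 UMIs came from 1 cell, and without it the level was 249 CPM, a 7.16-fold difference. Without the top cell of the Bap1WT set, with 96 UMIs, the level was 366 CPM, a 6.33-fold difference. Without them *Mmp3* was 1.67-fold lower in the Bap1ΔMPC library (log2 ratio -0.74, -0.83 to -0.65), against 2.60-fold with them. Among the remaining cells *Mmp3* was at 57.8 CPM in the Bap1WT and 34.7 CPM in the Bap1ΔMPC library. What part the number of these cells has in the difference was not tested. Without them *Adamts5* and *Adamts3* no longer passed 3-fold between Dpp4-type and other cells in both libraries.

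Cells with *Spon1*, *Cldn2*, *Hsd11b2* and *Angpt4* numbered 241 in the Bap1WT and 1056 in the Bap1ΔMPC library. In the Bap1ΔMPC library they held 409 of 599 *Adamts17* UMIs, 1391 of 2685 *Adamts4* UMIs and 1011 of 2100 *Mmp19* UMIs. *Adamts17* was at 32.2 CPM in them and 5.16 CPM in the remaining cells, and in the Bap1WT library at 16.9 and 7.64 CPM. Of the set, 9 cells of the Bap1WT and 25 of the Bap1ΔMPC library were Dpp4-type, and *Adamts17* was lower in Dpp4-type cells. These levels thus do not compare the set with other cells alone. *Adamts17* was 1.47-fold higher in the Bap1ΔMPC library over all cells and 1.48-fold lower without the *Spon1* cells (log2 ratio -0.57, -0.83 to -0.31). *Adamts4* also changed side, from 0.23 to -0.32 on the log2 scale. *Mmp3* was 3.70-fold lower without them, and *Adamts4* and *Mmp9* no longer passed 3-fold between Dpp4-type and other cells.

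**Figure D5:**
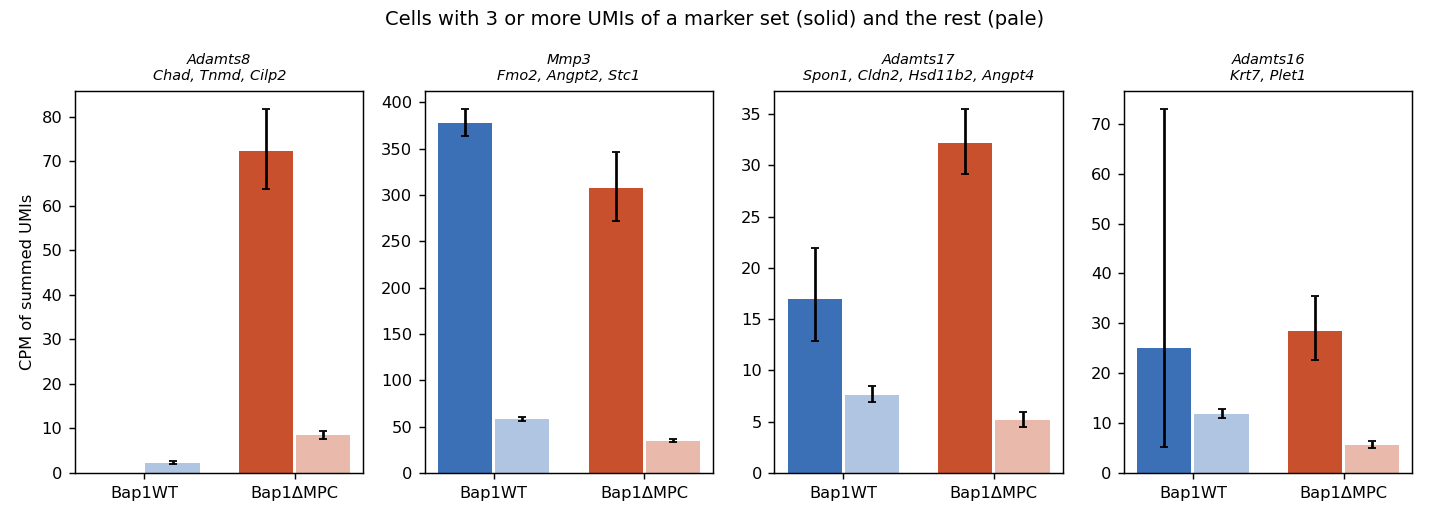
CPM of summed UMIs of 4 members in cells with 3 or more UMIs of the marker set named under each gene (solid bars) and in the remaining cells (pale bars), for each library, with exact Poisson 95% intervals. *Adamts8* reaches 72.3 CPM in tendon-marker cells of the Bap1ΔMPC library and has no UMI in those of the Bap1WT library, and the *Adamts16* bar of the Bap1WT library rests on 7 cells. The remaining cells include Dpp4-type cells.

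Cells with *Krt7* and *Plet1* were nearly limited to the Bap1ΔMPC library, 233 against 7, and 184 of the 233 were Dpp4-type. They had 5.04-fold more *Adamts16*, 2.84-fold more *Adamts5* and 2.60-fold more *Adamtsl3* than the remaining Bap1ΔMPC cells. Most of those remaining cells were not Dpp4-type, and all 3 genes were higher in Dpp4-type cells. These ratios therefore do not set the *Krt7* and *Plet1* cells apart from other Dpp4-type cells. Cells with *Wnt4*, *Pcsk2* and *Rtl4* numbered 280 and 1, and in the Bap1ΔMPC library they held 463 of 2347 *Adamtsl2* UMIs, a 3.30-fold higher level. Cells with *Hmcn1*, *Meox1* and *Etv4* numbered 735 in the Bap1WT and 278 in the Bap1ΔMPC library and in the latter had 3.02-fold more *Timp1* than the remaining cells, or 1.47-fold without 1 cell that held 275 of 533 UMIs. Of the 280 *Wnt4* and 278 *Hmcn1* cells of the Bap1ΔMPC library, 40 and 10 were Dpp4-type. *Adamtsl2* and *Timp1* were lower in Dpp4-type cells, so these ratios do not compare the sets with other cells alone.

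Across cells, *Timp2*, *Timp3*, *Adamts5* and *Adamtsl4*, all higher in Dpp4-type cells, were the members most alike. Among 276 pairs of the 24 members with 500 or more UMIs in each library, 5 had a Pearson r of log-normalised levels above 0.3 in both libraries, and none was below -0.3 in both. *Timp2* and *Timp3* led (0.44 over 4103 Bap1WT cells and 0.52 over 4378 Bap1ΔMPC cells), followed by *Timp2* with *Adamtsl4* (0.41 and 0.45), *Timp3* with *Adamts5* (0.33 and 0.52), *Timp2* with *Adamts5* (0.32 and 0.55) and *Timp3* with *Adamtsl4* (0.31 and 0.34). *Adamts15*, also higher in Dpp4-type cells, had r of 0.18 and 0.07 with *Timp2*. Cells of 1 library share its depth and its cell groups, so these values describe the libraries only. Among all genes with 200 or more UMIs in each library, those most like *Timp2* were *Anxa3*, *Pcolce2*, *Sema3c*, *Efemp1* and *Efhd1*, of which *Pcolce2* encodes an enhancer of procollagen C-proteinase. Those most like *Adamts5* were *Fbn1*, which encodes fibrillin-1, *Anxa3*, *Pcsk6*, *Emilin2* and *Cd55*, with r of 0.62 and 0.61 for *Fbn1*. *Adamts2* was most like *Col3a1*, the chain of a fibrillar collagen (0.39 and 0.30). *Adamts4* was most like *Gadd45b*, *Il6*, *Junb*, *Zfp36* and *Cxcl1*, genes of the immediate-early and inflammatory response, with r between 0.23 and 0.30. The cells had been released from muscle by enzyme digestion, and what part that has in this pattern was not tested.

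The genes around these families were read from lists compiled by hand. Of 35 other matrix proteases and activators, 31 entered, 2 were over 3-fold higher in the Bap1ΔMPC library (against 3.15% of all genes tested) and 0 lower (against 2.12%), with a median log2 ratio of 0.17 against 0.10 over all genes. *Adam12*, a transmembrane metalloprotease of regenerating mesenchyme, had 572 and 4158 UMIs (11.2 and 83.9 CPM, log2 ratio 2.90, 2.78 to 3.03). *Htra4*, a serine protease, had 267 and 932 UMIs (5.23 and 18.8 CPM, 1.85, 1.65 to 2.05). *Pcsk6*, a proprotein convertase, was higher in Dpp4-type cells of both libraries, at 578 and 133 CPM in the Bap1WT library, and *Pappa2*, which cuts IGF-binding proteins, was lower, at 0.779 and 9.08 CPM there.

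Of 23 other inhibitors and clearance genes, 20 entered, with a median log2 ratio of -0.28 against 0.10 over all genes. Over 3-fold, 1 was higher in the Bap1ΔMPC library (against 3.15% of all genes tested) and 1 lower (against 2.12%). *Wfdc1*, a secreted protein with a protease-inhibitor fold, fell from 3800 to 908 UMIs (74.5 to 18.3 CPM, log2 ratio -2.02, -2.13 to -1.92), and *A2m* had 4 and 20 UMIs. *Reck*, a membrane-anchored inhibitor of several MMPs, was at 78.4 and 68.3 CPM, and *Lrp1*, the receptor that clears proteases bound to inhibitors, at 612 and 810.0 CPM. Of 20 substrates, 18 entered, with a median of -0.19. Over 3-fold, 3 were higher (against 3.15% of all genes tested) and 0 lower (against 2.12%). Between Dpp4-type and other cells 16 substrates entered. In both libraries 0 were over 3-fold higher in Dpp4-type cells (against 1.57%) and 6 lower (against 4.47%). Between the libraries *Comp*, cartilage oligomeric matrix protein, rose from 1048 to 6701 UMIs (20.5 to 135 CPM) and *Acan*, aggrecan, from 2 to 61. *Reln*, with 6 and 21 UMIs, was the other substrate over 3-fold higher. *Col1a1* and *Col3a1*, the main fibrillar collagens, were lower, at 21266 and 9859 CPM and at 31688 and 20255 CPM, and *Vcan*, versican, was at 319 and 292 CPM.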

How the data were processed

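The authors sorted FAPs, made 10x Genomics Single Cell 3′ v3.1 libraries and, per the labels' processing notes, used bcl2fastq 2.20.0, FastQC 0.11.7, Cell Ranger 3.1.0 (mm10), R 3.6.1 and Seurat 3.2.1. The paper's methods state quality control, doublet gating and removal of cells with markers of other types. Deposited values are UMI counts per gene and cell, and every deposited cell had 1501 to 4998 genes and under 5% mitochondrial UMIs. No doublet caller was run here.

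UMIs were summed per library over all, Dpp4-type and other cells and divided by total UMIs (CPM). Exact Poisson intervals were given for CPM, conditional binomial ones for ratios and Clopper-Pearson ones for shares of cells (scipy 1.17.1), while intervals for differences of ratios were normal approximations. A count of 0 was set to 3 for ratios. There were 2 libraries, 1 per genotype, so nothing was tested between them. Depth was 2793 to 22492 UMIs per cell, which limits members under about 20 UMIs. Shares were also computed after thinning each cell to 5000 UMIs, which left out 120 Bap1WT and 210 Bap1ΔMPC cells. TMM factors came from edgeR 4.0.16. The ratio code was tested on simulated counts. Promoter windows came from RefSeq (GRCm38.p6) and positions from GENCODE vM21.

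Given in full were the *Timp* genes, the 5 members with the most UMIs and members over 3-fold in any comparison, 20 in all. Members, lists and rules were chosen with earlier results of these data known. The marker sets of the tendon, *Fmo2*, *Spon1*, *Hmcn1*, *Wnt4* and *Krt7* cells, the cells with 10 or more *Adamts8* UMIs and the most alike genes were chosen after the values were seen. Tendon markers were at 30.8 and 103 CPM, and the other lists of unwanted cells at or below 115 CPM in either library.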

Additional observations from a re-analysis of the deposited data

Results flagged for a closer look

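For 6 members the libraries differed in opposite directions in Dpp4-type and other cells, with both counting intervals leaving out equal levels. These were 6 of 33 members (18.2%), against 2.83% of all genes tested, with a median of 2497 UMIs over members and 1299 over all genes with 20 or more, so that members' intervals were narrower. The difference between the cell groups was not tested over replicates. Given as the log2 ratio (Bap1ΔMPC over Bap1WT) in Dpp4-type minus that in other cells, it was 0.67 for *Adamts5* (0.46 and -0.21), 0.20 for *Adamts1* (0.07 and -0.13), -0.83 for *Mmp19* (-0.44 and 0.38), -0.77 for *Mmp27* (-0.38 and 0.39), -0.63 for *Adamts19* (-0.29 and 0.34) and -0.43 for *Mmp2* (-0.28 and 0.15). For *Adamts1* TMM scaling brings the ratio in Dpp4-type cells to about equal. *Mmp19*, a secreted protease of wide substrate range, had 243 and 187 UMIs in Dpp4-type and 1557 and 1913 in other cells.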

How the results depend on the processing

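The count of members over 3-fold between Dpp4-type and other cells was 9 and moved beyond 1.5 times its size only with a 2-fold limit, to 14 (11.2% of all genes). Between libraries, a 2-fold limit gave 7 in all cells in place of 4 (12.0% of all genes) and 7 in Dpp4-type cells in place of 3 (8.85% of all genes). In Dpp4-type cells a minimum of 100 UMIs left 1 (*Adamtsl3*, with 1.64% of all genes) and no minimum gave 6 (6.54% of all genes), by construction of these limits. Other counts stayed within 1.5 times under TMM scaling, a total without the 50 most abundant genes, means over cells, leaving out cycling-marker cells or the 5% of cells with the most UMIs, cuts of 15 and 40, Dpp4-type cells without *Efemp1*, and, chosen after seeing the data, leaving out tendon-marker, *Fmo2*-set or *Spon1*-set cells. No called ratio of a named member changed sign, but some ratios short of 3-fold did, as given below. The members behind a count did change. *Adamtsl3* in all cells fell short of 3-fold with TMM scaling (1.51), a total without the 50 most abundant genes, means over cells and without *Fmo2*-set cells. *Mmp17* in Dpp4-type cells fell short with TMM scaling, the total without 50 genes, without the 5% deepest cells and with cuts of 15 and 40. *Timp4* in other cells fell short under 6 settings. Between Dpp4-type and other cells *Adamts3* fell short under 4 settings, *Mmp9* under 2, and *Adamts4* and *Adamts5* under 1 each, while *Mmp3* between libraries passed 3-fold without *Spon1*-set cells. Sizes between Dpp4-type and other cells moved with the cut. With a cut of 15 the log2 ratio was -0.36 for *Adamts8* in the Bap1ΔMPC library (-1.81 at 25) and -2.52 for *Adamts17* in the Bap1WT library (-4.13). With a cut of 40 it was -5.25 for *Adamts17* in the Bap1WT library, and for *Mmp3* -4.33 in the Bap1WT (-3.22) and -4.02 in the Bap1ΔMPC library (-2.84). For *Adamts16* in the Bap1ΔMPC library it was 4.37 and 3.01 with cuts of 15 and 40 (3.66). Between libraries in Dpp4-type cells *Adamts8* was at 2.38 with a cut of 15 (0.98). There *Adamts17* changed sign, at -0.45 with a cut of 15 and 1.63 with a cut of 40 (0.93). In other cells *Adamts16* between libraries also changed sign, at -0.45 with a cut of 15 (0.17). The cause was not tested. No paired analysis was possible because the groups share no replicate beyond 1 library each. Depth limits *Timp4*, *Mmp9*, *Mmp15*, *Mmp17* and *Mmp25*.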
